A study of Mus musculus with 3 samples.

Results

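The comparison describes liver that received a decoy against let-7 (TuD-let-7) beside liver that received the same kind of vector without a decoy (mock). Both livers came from C57BL/6 mice, an inbred laboratory strain, and were taken 4 weeks after the scAAV9 vector was injected. This adeno-associated virus vector, of the self-complementary kind, enters hepatocytes efficiently. Small RNAs of 18 to 30 nt were sequenced, with 1 library for each group. The sources used here do not give the age, sex and number of the animals, the dose, the promoter of the decoy or its sequence. A library from liver with a decoy against miR-122 (TuD-miR-122), from the same strain, time and kind of vector, served as another library without a let-7 decoy. The members are the 318 miRNAs with at least 20 reads over the TuD-let-7 and mock libraries, found by assigning each insert to a mouse miRNA precursor. They are 9 let-7 guide strands (miR-98-5p included), 7 let-7 passenger strands, both strands of miR-122 and 300 other miRNAs, called non-target here. With 1 library a group no difference has a replicate check, no test between conditions was made, and every interval given is a 95% interval for counting error only.

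let-7 miRNAs are processed from hairpin precursors and hold back growth and proliferation genes in differentiated tissues such as liver. The members of the family share a seed, bases 2 to 8 of the mature miRNA, which pairs with target mRNAs, and differ in the bases after it. A Tough Decoy (TuD) is a folded RNA made from the vector, whose open loops bind a chosen miRNA and keep it from its targets. Extensive pairing of a miRNA with a target can lead to the addition of untemplated bases at its 3′ end, called tailing, and to the loss of 3′ bases, called trimming.

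The guide strands are shown because the results turn on how their levels and 3′ ends differ among members. Sequences are those of RefSeq on GRCm38.p6, 5′ to 3′, with the seed in capitals.
let-7a-5p: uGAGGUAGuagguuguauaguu
let-7b-5p: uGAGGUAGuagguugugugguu
let-7c-5p: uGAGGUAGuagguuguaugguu
let-7d-5p: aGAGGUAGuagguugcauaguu
let-7e-5p: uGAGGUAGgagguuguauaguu
let-7f-5p: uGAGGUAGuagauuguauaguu
let-7g-5p: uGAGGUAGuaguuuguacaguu
let-7i-5p: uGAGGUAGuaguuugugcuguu
miR-98-5p: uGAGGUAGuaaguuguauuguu

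All 9 share the seed GAGGUAG. The mature let-7a-5p of Mirlet7a-1 lies at chr13:48538239-48538260 (minus strand), in an exon of 6720427I07Rik, a noncoding RNA gene, together with let-7f-5p of Mirlet7f-1 at chr13:48537889-48537910 and let-7d-5p at chr13:48536078-48536099. let-7b-5p (chr15:85707325-85707346) and let-7c-5p of Mirlet7c-2 (chr15:85706616-85706637) lie on the plus strand in exons of Lncppara, and Mirlet7c-1 in an intron of Mir99ahg (chr16:77599672-77599693, plus strand). let-7e-5p lies in an intron of Spaca6 (chr17:17830366-17830387, plus strand), and let-7g-5p in an intron of Wdr82 (chr9:106178846-106178867, plus strand). let-7i-5p lies in an exon of the pseudogene D630033A02Rik (chr10:122985698-122985719, minus strand). miR-98-5p (chrX:151913229-151913250) and let-7f-5p of Mirlet7f-2 (chrX:151912353-151912374) lie on the plus strand in introns of Huwe1. Reads of let-7a, let-7c and let-7f cannot be split between their loci.

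The libraries differed in size and composition. mock held 3450317 reads, TuD-let-7 2066892 and TuD-miR-122 3681585, of which 78.5%, 73.2% and 72.1% were assigned to miRNAs. miR-122-5p, the hepatocyte miRNA that regulates cholesterol and lipid genes, made up 37.7% of the miRNA reads of mock, 64.6% of TuD-let-7 and 32.6% of TuD-miR-122, which fits the labelled tissue. Levels are therefore given in RPM of non-target miRNA reads (1379370 in mock, 488417 in TuD-let-7), and a ratio is TuD-let-7 over mock on that scale unless another is named. Scaled to all reads, every such ratio is 0.591 times the value given. The TuD-let-7 library also held more reads with a mismatch: allowing 1 mismatch raised its non-target miRNA reads by 23.6%, whereas the mock and TuD-miR-122 libraries gained 7.27% and 8.05%. For the let-7 guides the ratios are plotted both ways, and miR-122-5p at 2.70 times mock became 2.37 times. Among abundant non-target miRNAs named below, miR-194-5p moved from 1.35 to 1.22, miR-26b-5p from 0.613 to 0.549 and miR-125b-5p from 1.45 to 1.30.

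The let-7 guides were lower in the TuD-let-7 library, and the members differed widely. Summed, they had 300464 reads in mock, 43125 in TuD-let-7 and 322195 in TuD-miR-122, or 217827, 88296 and 221400 RPM. The 2 libraries without a let-7 decoy thus lay close together and TuD-let-7 lay far below both. The ratio to mock was 0.405 (95% interval 0.401 to 0.409), or 0.240 scaled to all reads. Of 196 non-target miRNAs that reached 100 reads over both libraries, 9 had a ratio below that of the family, and 7 one below that of let-7f-5p.

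let-7f-5p, the most abundant member in mock, stood at 61062 RPM in mock, 13994 in TuD-let-7 and 61361 in TuD-miR-122, a ratio of 0.229 (0.224 to 0.235). let-7a-5p stood at 42810, 11548 and 43771 RPM, a ratio of 0.270 (0.262 to 0.277). These members were the lowest relative to mock. miR-98-5p had 1357, 174 and 1412 reads in the same order and a ratio of 0.362 (0.307 to 0.424), which overlaps that of let-7d-5p at 0.401 (0.383 to 0.419). let-7g-5p followed at 0.440 (0.431 to 0.450) and let-7c-5p at 0.467 (0.454 to 0.480). let-7e-5p, the rarest member but for miR-98-5p, had 1665, 370 and 2777 reads and a ratio of 0.628 (0.559 to 0.703). Both rare members differ by few bases from abundant ones, so miscalled reads of these could add to them and their levels are uncertain. At the other end were let-7b-5p, with 19447, 14780 and 21251 RPM and a ratio of 0.760 (0.740 to 0.780), and let-7i-5p, with 11087, 9478 and 10459 RPM and a ratio of 0.855 (0.827 to 0.883). Against the TuD-miR-122 library the outer members kept their places, from 0.228 for let-7f-5p to 0.906 for let-7i-5p. let-7e-5p moved next to let-7c-5p there, at 0.397 and 0.399, since it was more abundant in TuD-miR-122 than in mock.

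**Figure D1:**
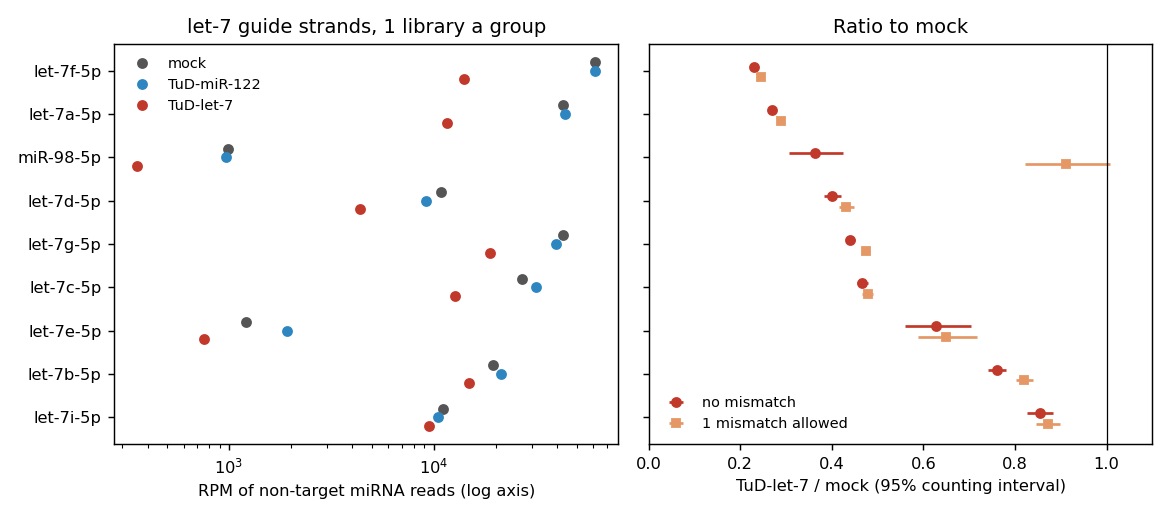
Left, the level of each let-7 guide in the 3 libraries, in RPM of non-target miRNA reads on a log axis, 1 point a library; right, the ratio of TuD-let-7 to mock with its 95% counting interval, without mismatch and with 1 mismatch allowed. Ratios run from 0.229 for let-7f-5p to 0.855 for let-7i-5p, and miR-98-5p is the member that moves most with the mismatch.

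With unequal ratios the make-up of the family shifted. let-7f-5p went from 28.0% of family reads in mock to 15.8% in TuD-let-7, while let-7b-5p went from 8.93% to 16.7% and let-7i-5p from 5.09% to 10.7%. let-7g-5p was the most abundant member in TuD-let-7 at 21.2%, close to its 19.6% in mock. With 1 mismatch allowed the family stood at 0.432 and the order was the same but for miR-98-5p, at 0.911. Of its reads in TuD-let-7, 320 then carried A11T (positions count from 1 at the 5′ end, the miRNA's base first), 64.8% of its reads, against 2 reads in mock and 0 in TuD-miR-122. A change at the same position, G11T, stood on 14.0% of let-7a-5p reads in TuD-let-7 and 0.0355% in mock, so the level of miR-98-5p under that setting is uncertain.

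Below, capitals mark the bases at which a member differs from let-7a-5p, the reference with a ratio of 0.270. They are shown beside the ratios so that the order of the members can be read against their sequences.
let-7f-5p: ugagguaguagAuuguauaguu
miR-98-5p: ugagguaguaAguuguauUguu
let-7d-5p: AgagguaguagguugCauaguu
let-7g-5p: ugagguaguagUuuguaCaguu
let-7c-5p: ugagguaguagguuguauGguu
let-7e-5p: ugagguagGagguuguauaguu
let-7b-5p: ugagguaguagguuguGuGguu
let-7i-5p: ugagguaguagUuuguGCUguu

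The lines run from the lowest ratio to the highest. let-7i-5p, with 4 differences, all after base 11 (G12U, A17G, U18C and A19U), had the highest ratio, and let-7b-5p, with A17G and A19G, the next. let-7f-5p, with the single change G12A, lay below let-7a-5p itself. The 3 other members with 1 difference after base 11 had ratios of 0.362 (miR-98-5p, A19U, besides G11A before it), 0.401 (let-7d-5p, U16C, besides U1A) and 0.467 (let-7c-5p, A19G). let-7g-5p, with G12U and U18C, stood at 0.440. No simple order held, as let-7g-5p lay below let-7c-5p, which has fewer differences. let-7e-5p broke it as well, as its sole difference, U9G, lies near the seed and its ratio was 0.628. Against TuD-miR-122 the ratio of let-7e-5p was 0.397, beside let-7c-5p at 0.399. This is a description over 9 members and carries no test.

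The passenger strands, which come from the same precursors and do not share the seed, were lower than mock by far less than the guides. Over the 7 of them the reads were 2004 in mock, 607 in TuD-let-7 and 1649 in TuD-miR-122, a ratio of 0.855 (0.780 to 0.937), or 0.506 scaled to all reads. Singly, the listed strands lay at 0.887 of mock for let-7d-3p, 0.823 for let-7a-1-3p, 0.798 for let-7f-2-3p, 0.775 for let-7g-3p, 0.895 for let-7b-3p and 1.19 for let-7i-3p. let-7f-1-3p, with 55 and 9 reads, stood at 0.462, and its interval of 0.201 to 0.943 is wide. There were 15.9 reads of let-7d-5p per read of let-7d-3p in mock, 7.18 in TuD-let-7 and 19.9 in TuD-miR-122. For let-7g the guide reads per passenger read were 384, 218 and 392.5. For let-7b they were 266, 226 and 340. These quotients do not depend on the scale. Among 28 non-target precursors with enough reads on each arm, the same quotient changed by a median of 0.826 (range 0.514 to 1.90), and all 28 stayed within 2-fold, whereas let-7d changed by 0.452. let-7g, at 0.568, and let-7b, at 0.849, lay within that range.

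The let-7 reads left in TuD-let-7 were more often short at the 3′ end, and the short forms more often carried adenosines. Reads are described by the length of the part that matches the precursor and by any tail after it. Reads with a matching part under 21 nt, called trimmed, made up 5.19% of the family in mock, 16.8% in TuD-let-7 and 5.59% in TuD-miR-122. Part of that difference was in trimmed reads with a tail of only A, at 0.70%, 5.99% and 0.66%, while trimmed reads with no tail made up 2.40%, 3.89% and 2.14%. The remaining trimmed reads, with other tails, differed from mock by nearly as much as those with A tails. Some of these other tails can come from base changes, as described below. Untailed reads of 23 nt or more went the other way, at 11.6%, 5.86% and 12.6%. The mean matching part was 21.83 nt in mock, 21.34 nt in TuD-let-7 and 21.81 nt in TuD-miR-122.

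Summed over the family, the ratio of untailed forms to mock was lower the longer the form, from 19 to 24 nt. It was 0.908 (0.801 to 1.03) at 19 nt, 0.636 at 20 nt, 0.461 at 21 nt, 0.345 at 22 nt, 0.208 at 23 nt and 0.157 at 24 nt. Single members did not all follow this. At 19, 20 and 22 nt let-7a-5p stood at 2.79, 0.972 and 0.136. By contrast, let-7b-5p stood at 0.362, 0.640 and 1.05, and let-7g-5p at 0.149, 0.203 and 0.609. The family value at 19 nt includes untailed let-7a-5p, with 226 reads in mock and 223 in TuD-let-7. Such reads cannot be told apart from let-7c-5p of 18 nt with an added A. Family forms with a tail of only A were above mock from 17 to 20 nt and below it from 22 nt. Their ratios were 2.995 (2.70 to 3.32) at 19 nt, 3.70 (3.44 to 3.99) at 20 nt, 0.898 (0.851 to 0.946) at 21 nt, 0.349 at 22 nt and 0.208 at 23 nt. Scaled to all reads, the forms of 19 and 20 nt with A tails would still stand above mock. Adenosine tails stood on 47.3% of the 20-nt reads in TuD-let-7, while mock and TuD-miR-122 had 14.9% and 15.8%. At 22 nt, the length of the mature miRNA, they stood on 19.6%, 19.4% and 14.6%. Thus at 20 nt the libraries without the let-7 decoy lay together, and at 22 nt TuD-let-7 did not stand apart from mock. Uridine tails, read as T, made up 2.47% of family reads in TuD-let-7 and 2.46% in mock. This sum also carries the shift in the make-up of the family. In let-7i-5p alone such tails were less frequent than in mock, as given below.

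**Figure D2:**
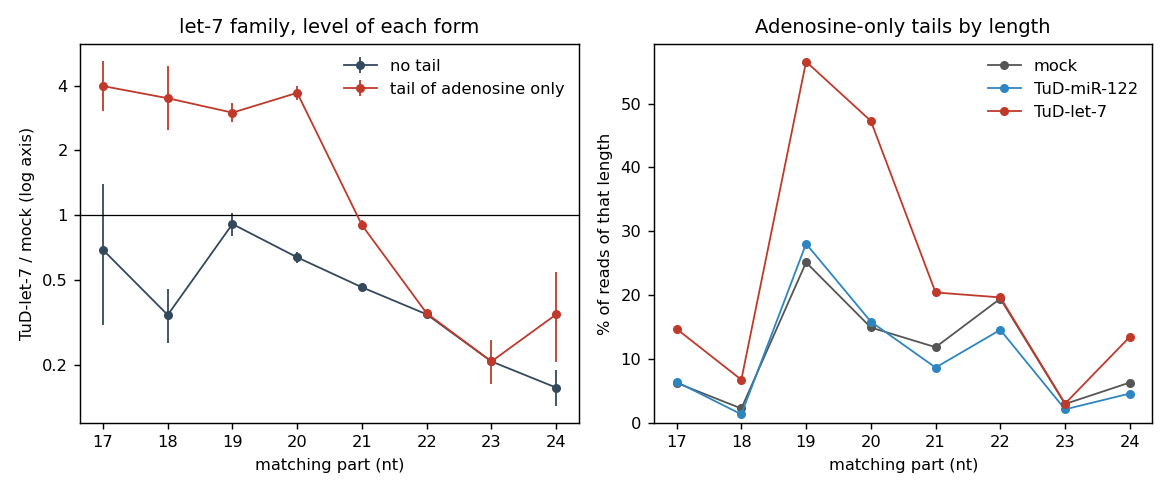
Left, the ratio of TuD-let-7 to mock (log axis) for let-7 family reads without a tail and with a tail of adenosine only, by the length of the matching part in nt, with 95% counting intervals; right, the share of reads of each length that carry such a tail, in the 3 libraries. A-tailed forms of 17 to 20 nt lie above 1, and the share at 20 nt is 47.3% in TuD-let-7 and 14.9% in mock.

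The forms of let-7c-5p, let-7b-5p and let-7g-5p show the range. They are printed because they carry the difference between members that were both trimmed and A-tailed and a member that was not, with the added bases in capitals.
let-7c-5p, full length: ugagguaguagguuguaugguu
let-7c-5p, 20 nt and A: ugagguaguagguuguauggA
let-7c-5p, 20 nt and AA: ugagguaguagguuguauggAA
let-7b-5p, full length: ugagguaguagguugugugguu
let-7b-5p, 20 nt and A: ugagguaguagguuguguggA
let-7g-5p, full length: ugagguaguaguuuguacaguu
let-7g-5p, 20 nt and A: ugagguaguaguuuguacagA
let-7g-5p, 22 nt and A: ugagguaguaguuuguacaguuA

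The full-length let-7c-5p had 17061 reads in mock, 1957 in TuD-let-7 and 22532 in TuD-miR-122, a ratio to mock of 0.324 (0.309 to 0.339). Its 20-nt form with an added A had 305, 548 and 306 reads, a ratio of 5.07 (4.403 to 5.86), and with AA 75, 165 and 78 reads, a ratio of 6.21 (4.70 to 8.28). The short forms thus had more reads in the smallest library than in either other. Trimmed reads went from 4.88% of let-7c-5p in mock (4.67 to 5.11) to 24.3% in TuD-let-7 (23.2 to 25.4), and tails of only A from 17.5% to 35.9%. The full-length let-7b-5p, by contrast, stood near mock, with 6201, 2298 and 8150 reads and a ratio of 1.05 (0.997 to 1.098). Its 20-nt form with A had 104, 340 and 87 reads, a ratio of 9.23 (7.39 to 11.6). Trimmed reads of let-7b-5p went from 9.14% to 25.6%, yet its total share of A tails was 23.5% in mock and 23.7% in TuD-let-7, as its A-tailed forms of 22 nt were at 0.329 of mock.

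let-7g-5p differed from both. Its full-length form had 30401 reads in mock, 6553 in TuD-let-7 and 31461 in TuD-miR-122, a ratio of 0.609 (0.593 to 0.625). The 20-nt form with A had 155, 12 and 110 reads, a ratio of 0.219 (0.111 to 0.393), and the 22-nt form with A had 7308, 567 and 5104 reads, also 0.219 (0.201 to 0.239). Its A tails went from 17.3% in mock (16.96 to 17.6) to 7.30% in TuD-let-7 (6.78 to 7.85), and its untailed reads of 21 nt or more from 74.3% to 85.1%. let-7i-5p, the member with the highest ratio, had its full-length form at 1.08 of mock (1.03 to 1.14), tails of only A on 24.6% and 21.2% of reads, and tails of only T on 27.8% and 18.0%. let-7g-5p and let-7i-5p share G12U and U18C.

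let-7a-5p and let-7f-5p, the members with the lowest ratios, also had the lowest ratios of the full-length form. For let-7a-5p it had 30847 reads in mock, 1485 in TuD-let-7 and 34362 in TuD-miR-122, a ratio of 0.136 (0.129 to 0.143). For let-7f-5p it had 47016, 2509 and 51065 reads, a ratio of 0.151 (0.145 to 0.157). The other members had full-length ratios of 0.260 (miR-98-5p), 0.332 (let-7d-5p) and 0.453 (let-7e-5p), so that the spread between members was wider in this form than over all reads. let-7a-5p had 164, 223 and 225 reads of the 20-nt form with A, a ratio of 3.84 (3.12 to 4.73). let-7f-5p had 144, 60 and 135 such reads, and its ratio of 1.18 (0.856 to 1.60) spans 1. Tails of only A stood on 13.8% of let-7a-5p reads in mock and 26.5% in TuD-let-7, and on 11.96% and 22.6% of those of let-7f-5p. Trimmed reads of let-7a-5p went from 3.38% to 18.9%. A let-7a-5p read of 19 nt has the same letters as a let-7c-5p read of 18 nt with an added A, so these cannot be told apart. Without such 19-nt reads, 356 in mock and 386 in TuD-let-7, the share was 2.79% in mock and 12.9% in TuD-let-7.

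Among other miRNAs, tails and trimming also differed between the libraries, but adenosine tails did not differ in the same way. Forms were compared for 49 non-target miRNAs, those with 1000 or more reads in each library. The share with a tail of only A changed by a median of -0.11 percentage points, and 0 of 49 lay above the 5.68 points of the let-7 family. The family values also carry the shift in its make-up, so they are not fully like those of a single miRNA. Singly, let-7a-5p, let-7c-5p and let-7f-5p were higher than mock in this share, as given above. There, let-7b-5p was near mock, and let-7g-5p and let-7i-5p were lower. Among the 49, trimmed shares changed by a median of 2.73 points, and 3 of 49 lay above the 11.6 points of the family. Over tails of any kind the median was 2.69 points, and 8 of 49 lay above the family's 9.59 points. Tails of mixed bases set let-7 apart less, as 23 of 49 lay above the family's 3.64 points. The largest positive differences in A tails were in miR-24-3p, made by 2 clusters with miR-23 and miR-27 (15.2% to 20.3%), miR-15a-5p, a regulator of the cell cycle (40.3% to 45.3%), and miR-31-5p (23.3% to 27.3%). The largest negative differences were in miR-93-5p, of the miR-106b-25 cluster (16.4% to 10.4%), and miR-26b-5p (14.8% to 12.02%). miR-122-5p, the target of the other decoy, had A tails on 16.2% of reads in mock and 17.9% in TuD-let-7, and trimmed shares of 3.08% and 3.04%.

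Uridine tails moved in both directions. miR-24-3p had tails of only T on 43.6% of reads in mock, 30.4% in TuD-let-7 and 41.1% in TuD-miR-122, and miR-23b-3p on 51.4%, 42.1% and 40.1%. miR-130a-3p went from 33.2% to 24.1% and miR-26b-5p from 25.6% to 17.9%. In miR-29a-3p and miR-29c-3p, regulators of collagen genes, these tails went from 2.26% to 8.96% and from 2.08% to 8.58%, with 3.58% and 2.92% in TuD-miR-122. With tails that resume the precursor after 1 base left out (described next), both differences shrank, to 0.65 points (2.01% to 2.66%) for miR-29a-3p and 0.88 points (1.54% to 2.42%) for miR-29c-3p. Those of miR-24-3p (-12.9 points) and miR-23b-3p (-9.35 points) stayed close to their values with all reads. The median over the 49 miRNAs was -0.18 points, with 24 positive and 25 negative differences.

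Part of the difference in tailing and trimming outside let-7 moved with the mismatches of this library. A base change near the 3′ end makes a read look like a shorter matching part with a tail that takes up the precursor again after 1 base. Such tails made up 7.07% of non-target miRNA reads in TuD-let-7, and 2.94% and 2.81% in the mock and TuD-miR-122 libraries. In the let-7 family they made up 5.76%, 3.35% and 3.79%, and in miR-122-5p 1.94%, 2.22% and 2.38%. With these reads left out, the median non-target change in trimming was 0.64 points and 0 of 49 miRNAs lay above the let-7 family, whose change was 10.1 points. For tails of any kind 4 of 49 lay above its 8.17 points. The change in A tails was then 6.14 points for the family, with 1 of 49 miRNAs above it (miR-31-5p, 6.19 points). The trimmed share of miR-146a-5p, which dampens inflammatory signalling, changed by 16.6 points with all reads and by 7.88 points without them.

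**Figure D3:**
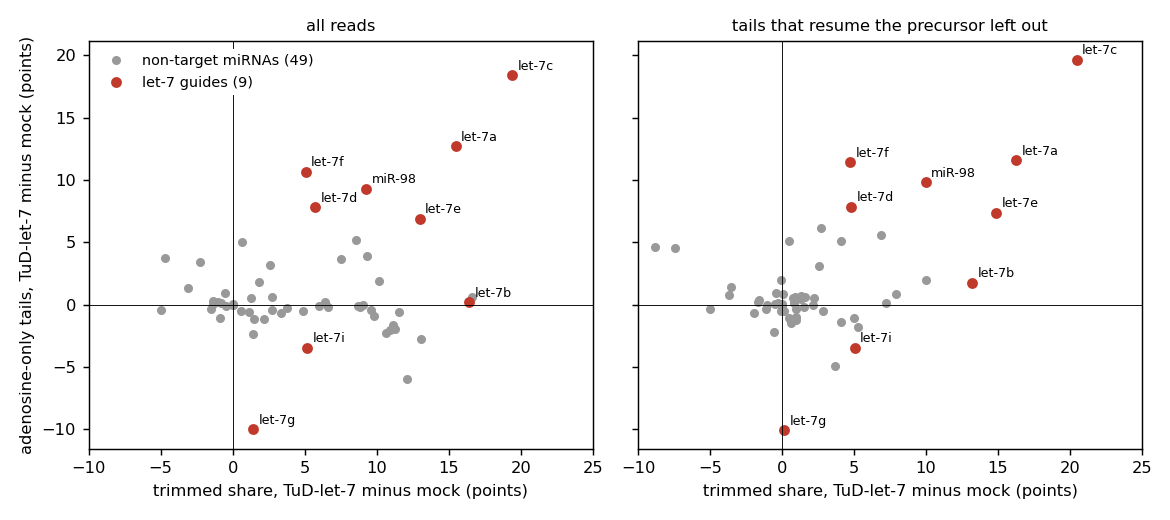
Change in the share of trimmed reads (x axis) and of reads with a tail of adenosine only (y axis), TuD-let-7 minus mock in percentage points, for 49 non-target miRNAs (grey) and the 9 let-7 guides (red), with all reads (left) and with tails that resume the precursor after 1 base left out (right). let-7a, let-7c, let-7e and let-7b lie to the right of all grey points in the right panel, and let-7g and let-7i lie below 0 on the y axis in both.

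The base changes themselves were of few kinds. At positions 1 to 18 of the non-target miRNAs, 4.195% of reads in TuD-let-7 had a mismatch at position 11, and 0.307% and 0.379% of reads in the mock and TuD-miR-122 libraries. At position 2 the shares were 3.49%, 0.261% and 0.297%. Split by change, G11T stood on 13.0% of reads with a G there in TuD-let-7 and on 0.0547% in mock, and G10T on 8.38% and 0.740%. A2C stood on 5.59% and 0.0217%, and A6C on 7.31% and 1.86%. These shares were raised in TuD-let-7 at some positions and near the other libraries at others, such as 5, 9 and 16. They bear on near-identical miRNAs. miR-378d differs from the first bases of miR-378a-3p by A6C and had 8.12 reads per 100 of miR-378a-3p in TuD-let-7, and 1.74 and 0.111 in the mock and TuD-miR-122 libraries. A6C in miR-30a-5p, which has no such copy, stood at 10.1%, 2.33% and 0.112%, so the level of miR-378d is uncertain.

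**Figure D4:**
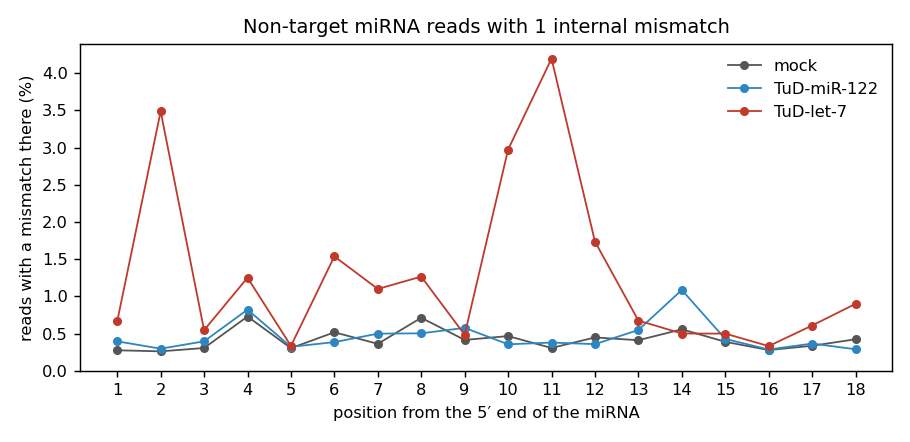
Share of non-target miRNA reads with a single internal mismatch at each position, in percent, counted from 1 at the 5′ end, in the 3 libraries. TuD-let-7 peaks at positions 2, 10, 11 and 12, and at position 5 the libraries lie close together.

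Levels of the other miRNAs mostly stayed within 2-fold of mock. Of the 196 tested, those with 100 reads or more over both libraries, 167 (85.2%) did so, the median ratio was 0.989, and the quartiles were 0.752 and 1.34. By the 2-fold rule, which asks that the whole counting interval lie above 2 or below 0.5, 8 were higher (4.08%) and 8 lower (4.08%). Ratios above 1 made up 48% of the 196 and ratios below 1 made up 52%. Scaled to all reads, 4 were higher (2.04%) and 38 lower (19.4%), and the median shifted by -0.76 on the log2 scale. With 1 mismatch allowed, 8 of 198 were higher (4.04%) and 9 lower (4.55%). Against TuD-miR-122, 6 of 216 were higher (2.78%) and 37 lower (17.1%). The plot of all miRNAs against their level in mock shows the spread.

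**Figure D5:**
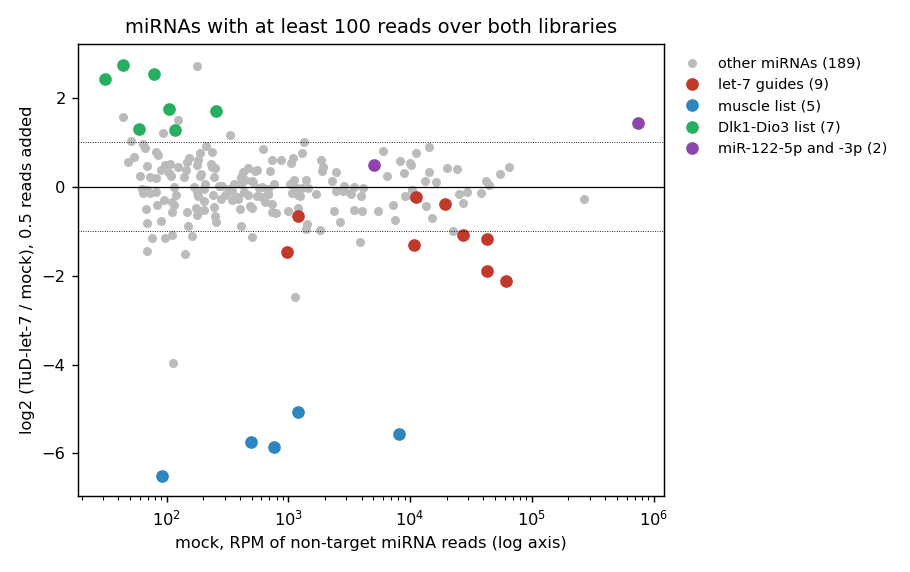
log2 ratio of TuD-let-7 to mock (0.5 reads added) against the level in mock in RPM of non-target miRNA reads (log axis), for miRNAs with at least 100 reads over both libraries, 1 point each. The dotted lines mark 2-fold, within which 167 of 196 non-target miRNAs lie, and the muscle list lies far below them.

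The 20 most abundant non-target miRNAs of mock had ratios from 0.502 to 1.85, and none passed the 2-fold rule. miR-21a-5p, the most abundant of them, stood at 268366 RPM in mock, 222038 in TuD-let-7 and 280636 in TuD-miR-122, a ratio of 0.827 (0.822 to 0.833). The hepatocyte miRNAs miR-194-5p, miR-101b-3p and miR-192-5p stood at 1.35, 1.22 and 1.02. The highest were miR-22-3p, at 14336, 26514 and 17725 RPM (1.85), and miR-19b-3p of the growth-linked miR-17-92 cluster, at 11174, 18886 and 8058 RPM (1.69). The lowest were miR-16-5p, at 22378, 11238 and 23394 RPM (0.502, 0.488 to 0.517), and miR-26b-5p, at 15072, 9236 and 14763 RPM (0.613). For miR-16-5p and miR-26b-5p mock and TuD-miR-122 lay together and TuD-let-7 below both. miR-122-5p stood at 2.70 times mock (2.70 to 2.71), or 1.60 times scaled to all reads, and miR-122-3p at 1.39.

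Several other families that share a seed are given for comparison. The miR-15/16 family, which restrains cyclins, had 37821 RPM in mock and 24260 in TuD-let-7, a ratio of 0.641 (0.629 to 0.654), with members from 0.502 (miR-16-5p) to 1.28 (miR-497a-5p). miR-26a-5p and miR-26b-5p together stood at 0.717 (0.705 to 0.731). miR-19a-3p and miR-19b-3p stood at 1.66 (1.63 to 1.71), and miR-103-3p with miR-107-3p, which lie in introns of the pantothenate kinase genes and dampen insulin signalling, at 1.65 (1.60 to 1.70). The 3 members of the miR-29 family stood at 0.974 together, between 0.888 and 1.08 singly. The miR-30a, miR-30c and miR-30e guides stood between 0.955 and 1.34. The 4 miR-181 guides stood at 0.977 together and spanned 0.282 to 1.17 singly. The lowest, miR-181d-5p, is the rarest of them and rests on few reads. let-7k, which has the let-7 seed and is counted among the non-target miRNAs here, had 75 and 42 reads and a ratio of 1.58. Its few reads differ by few bases from abundant let-7 members, so its level is uncertain.

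On the scale of non-target miRNA reads, most of the miRNAs made from the same transcripts as let-7 members were not lower with them. miR-99a and miR-125b lie beside let-7c on chromosome 16 and miR-100 and miR-125b beside let-7a on chromosome 9, and miR-99b and miR-125a beside let-7e on chromosome 17. Of 8 measured strands from these clusters, 7 had a ratio above 1, with a median of 1.35, against 153 of 300 non-target miRNAs and a median of 1.02. miR-125b-5p stood at 9943 RPM in mock, 14453 in TuD-let-7 and 9459 in TuD-miR-122, a ratio of 1.45 (1.41 to 1.496). miR-99a-5p stood at 8333, 12387 and 7674 RPM, a ratio of 1.49 (1.44 to 1.53). miR-100-5p was at 1.103, miR-99b-5p at 1.30 and miR-125a-5p at 0.895. Scaled to all reads the median of this list lay below mock, at -0.32 on the log2 scale.

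Of the 8 miRNAs above the 2-fold rule, 5 belong to the Dlk1-Dio3 cluster of chromosome 12, an imprinted locus that is active in embryonic and neural tissue. Their reads in mock, TuD-let-7 and TuD-miR-122 were 60, 143 and 819 for miR-376a-3p (ratio 6.73), 108, 220 and 2170 for miR-127-3p (5.75), and 43, 82 and 686 for miR-134-5p (5.39). miR-541-5p had 145, 171 and 1564 reads (3.33) and miR-136-5p 353, 407 and 5502 (3.26). miR-541-5p and miR-136-5p did not pass the rule scaled to all reads. mock was the low library for each, and TuD-let-7 lay between mock and TuD-miR-122. Against TuD-miR-122 the same miRNAs were lower, from 0.220 for miR-136-5p to 0.520 for miR-376a-3p. Of 21 measured strands of the cluster 20 had a ratio above 1, with a median of 2.82. Over all 300 non-target miRNAs 153 did, with a median of 1.02. Only 7 of the 21 strands had enough reads for the 2-fold rule. Strands were listed by their reads over mock and TuD-let-7 together, so a strand rare in mock could enter through TuD-let-7. The summed level of the cluster was 904 RPM in mock, 3098 in TuD-let-7 and 13321 in TuD-miR-122. In bulk tissue, more cells of a type and more RNA per cell cannot be told apart.

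The other 3 were miR-33-5p, miR-203b-3p and miR-378d. The level of miR-378d is uncertain, as given above, with 243, 565 and 14 reads and a ratio of 6.57, or 8.50 with 1 mismatch allowed. miR-33-5p lies in an intron of Srebf2, the sterol-sensing transcription factor gene, at chr15:82198127-82198147 (plus strand), and represses cholesterol export genes. It is printed with 3 of the called lower miRNAs, described after the muscle group, so that the called miRNAs of neither the cluster nor muscle can be seen together. It had 172 reads in mock, 172 in TuD-let-7 and 247 in TuD-miR-122, or 125, 352 and 170 RPM, and a ratio of 2.82 (2.27 to 3.51). Scaled to all reads it did not pass the rule. miR-203b-3p, from the strand opposite miR-203, had 61, 64 and 28 reads (2.96), and it did not pass with 1 mismatch allowed or scaled to all reads.
miR-33-5p: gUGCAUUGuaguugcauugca
miR-802-5p: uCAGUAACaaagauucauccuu
miR-27a-3p: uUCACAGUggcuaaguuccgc
miR-205-5p: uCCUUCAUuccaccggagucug

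Of the 8 below the rule, 5 are miRNAs of skeletal muscle. miR-1a-3p had 11080 reads in mock, 83 in TuD-let-7 and 1090 in TuD-miR-122 (47.3-fold lower than mock), miR-133a-3p 1657, 17 and 136 (34.5-fold) and miR-206-3p 681, 4 and 112 (60.3-fold). miR-133a-5p had 127, 0 and 14 reads; set against the floor of 3 reads in TuD-let-7 it was at least 14.99-fold lower. miR-133b-3p had 1061, 6 and 92 reads and is uncertain, since only 10.1% of its reads were untailed and it is nearly identical to miR-133a-3p. mock was the high library for all 5. The summed level of the list was 10589 RPM in mock, 225 in TuD-let-7 and 992 in TuD-miR-122, and all 5 of 5 members were below mock. These are markers of a tissue other than liver, and the part of muscle RNA in these differences was not tested.

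The remaining 3 lower miRNAs were miR-205-5p, miR-802-5p and miR-27a-3p. miR-205-5p, an epithelial miRNA (chr1:193507503-193507524, minus strand), had 155, 3 and 53 reads, a ratio of 0.0547 (0.0112 to 0.163). miR-802-5p, which impairs glucose handling when raised in liver (chr16:93369737-93369758, plus strand), had 1558, 98 and 835 reads, or 1130, 201 and 574 RPM, a ratio of 0.178 (0.143 to 0.218). Its passenger strand miR-802-3p had 196, 24 and 47 reads, a ratio of 0.346. miR-27a-3p, which targets lipid metabolism genes (chr8:84208727-84208747, plus strand), stood at 3870, 1632 and 3791 RPM, a ratio of 0.422 (0.391 to 0.454). For miR-27a-3p the libraries without the let-7 decoy lay together, whereas miR-802-5p differed between them as well. miR-27b-3p, with the same seed, stood at 0.742, and miR-23a-3p and miR-24-3p, which lie beside miR-27a on chromosome 8, at 0.887 and 1.23. miR-24-3p is also made on chromosome 13, and its reads cannot be split between the loci.

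Marker lists of other cell types moved less than the muscle list. For comparison, 147 of all 300 non-target miRNAs were below mock and 153 above, with a median of 1.02. Of 10 immune strands 9 were below mock, with a median of 0.733 and summed levels of 15032, 12150 and 14070 RPM in mock, TuD-let-7 and TuD-miR-122. miR-223-3p, the myeloid miRNA, stood at 0.561 (0.502 to 0.626), miR-142a-3p, of blood cells, at 0.752 and miR-155-5p, of activated immune cells, at 0.434 on 104 and 16 reads. miR-146a-5p stood near mock, at 0.999, and the immune list ran from 0.434 to 1.495. All 5 erythroid strands were below mock, with a median of 0.770 and summed levels of 34606, 30957 and 48620 RPM, and miR-451a, the red-cell miRNA, stood at 0.924. Of 12 stromal strands 7 were above mock, with a median of 1.20, from 0.443 (miR-10b-5p, a near copy of miR-10a-5p) to 2.29. Of 9 epithelial strands 6 were below mock (median 0.763), and of the 15 hepatocyte strands 9 were (median 0.968). Of 6 neural strands 5 were below mock, with a median of 0.976. The pancreas markers had 110 RPM in mock, 154 in TuD-let-7 and 1402 in TuD-miR-122. None of these lists held a miRNA past the 2-fold rule other than miR-205-5p and miR-802-5p.

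Lists tied to metabolism and growth are given in the same way. In the lipid and glucose list, 5 of 7 strands were above mock, with a median of 1.36, and 1 passed the rule upward (miR-33-5p) and 1 downward (miR-802-5p), against 4.08% each way over all tested miRNAs. Of 14 strands from the miR-17-92 and miR-106b-25 clusters 8 were above mock, with a median of 1.29, a highest ratio of 1.77 and a lowest of 0.687. Of 7 strands of the miR-23, miR-27 and miR-24 clusters 4 were below mock, with a median of 0.888. Of 10 p53 and stress strands 6 were above mock, with a median of 1.04, and miR-34a-5p, a p53 target, stood at 0.952. Against these, 153 of all 300 measured non-target miRNAs were above mock and 147 below, with a median of 1.02.

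Among the 28 non-target precursors, the use of the 2 arms shifted most in miR-22 and miR-802. For miR-122, not among them, the guide outnumbered the passenger 145 to 1 in mock, 281 to 1 in TuD-let-7 and 82.7 to 1 in TuD-miR-122. There were 9.85 reads of miR-22-3p per read of miR-22-5p in mock, 18.8 in TuD-let-7 and 13.7 in TuD-miR-122. miR-126a-3p, the endothelial miRNA, had 2.18, 3.95 and 2.64 reads per read of miR-126a-5p. miR-802-5p had 7.95, 4.08 and 17.8 per read of miR-802-3p. In miR-30a, miR-31 and miR-140 the quotient also was higher than in mock, at 66.7 against 43.4, 23.5 against 15.996 and 7.63 against 5.29. It was lower in miR-362 (0.840 against 1.48), miR-423 (3.92 against 6.84), miR-199a (1.31 against 2.24) and miR-322 (7.16 against 11.7). Reads of miR-199a-3p also come from Mir199b, so the quotient of miR-199a is not one of arm use alone. The start of the reads differed little: 0.914% of let-7 family reads began within 2 nt of the usual 5′ end but not at it in mock, 0.911% in TuD-let-7 and 0.942% in TuD-miR-122. The members did not all share this. The share was 0.644% (0.582 to 0.712) in mock and 0.318% (0.189 to 0.502) in TuD-let-7 for let-7a-5p, and 1.18% (1.01 to 1.36) and 1.90% (1.37 to 2.57) for let-7d-5p. Over the 49 non-target miRNAs the median change was 0.11 points, from -7.94 (miR-140-3p, 32.5% to 24.5%) to 4.50 points (miR-101a-3p, 23.6% to 28.1%).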

How the data were processed

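Per the labels, mirVana (Ambion) was used to isolate liver RNA, the fraction of 18 to 30 nt was cut from a gel, and 1 small RNA library was made for each group. The deposited files give each distinct insert (15 to 30 nt) with its raw read count. These counts were not normalised. Nothing in the sources used here gives the adapter removal, filters or read quality. No molecular identifiers are given, so PCR copies count as reads.

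Inserts were assigned to 1222 miRNA precursors, 1005 from RefSeq and 217 from GENCODE release 21 for mouse (GRCm38). A read had to begin at the RefSeq 5′ end, moved where another start within 3 nt was more frequent (15 cases), and to match for at least 16 nt. Any remaining bases, at most 5 nt, were called a tail. Entries with identical first 22 nt were merged. Reads that fitted several entries equally were given to no single miRNA. Those that fitted only let-7 guides entered the family sum, and the others stayed in the total of non-target miRNA reads. Both kinds together made up 0.314% of the miRNA reads of mock, 0.318% of TuD-let-7 and 0.334% of TuD-miR-122. Base-call errors near the 3′ end count as tails. Sequences are from RefSeq, and those of chromosome 18 are not printed.

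Ratios have exact conditional-binomial intervals and shares exact Clopper-Pearson intervals, both at 95%. The floor of 3 reads is 2.17 RPM in mock and 6.14 RPM in TuD-let-7. miRNAs with at least 100 reads over both libraries entered the 2-fold rule, and those with at least 1000 in each entered the comparison of forms. The assignment and the rule were tested on simulated data. Named miRNAs were drawn from the let-7 and miR-122 strands, the 20 most abundant non-target miRNAs of mock, those past the 2-fold rule, the 5 largest changes each way in each form and in arm use, and up to 4 members of each list. Not all of these are printed, and a few other strands were named after their values were seen. The members and lists were chosen with earlier results of these data known. Alternatives were other scalings, TuD-miR-122 as control, 1 internal mismatch, other starts, read minimums, and limits for tails and trimming. Analyses used Python 3.11.15, numpy 2.4.6, scipy 1.17.1 and pandas 2.3.3.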

Additional observations from a re-analysis of the deposited data

How the results depend on the processing

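No paired analysis was possible because each group has 1 library, and leaving out a replicate was not possible for the same reason. The ratio of the let-7 family to mock (0.405) stayed below 0.5 in every setting run: 0.240 scaled to all reads, 0.257 scaled to all miRNA reads, 0.411 with a median-of-ratios size factor, 0.399 against TuD-miR-122, 0.432 with 1 mismatch, 0.400 with starts within 2 nt and 0.413 with resuming tails left out. Counts of non-target miRNAs by the 2-fold rule, 8 higher and 8 lower, became 4 and 38 scaled to all reads and 4 and 34 scaled to all miRNA reads. With no minimum of reads 16 were higher, against TuD-miR-122 37 were lower, and without near copies and the muscle and Dlk1-Dio3 lists 2 were higher and 3 lower. Scaled to all reads, 4 of the 8 higher and 8 of the 8 lower calls were kept, and against TuD-miR-122 1 and 4 were. Against TuD-miR-122 the direction turned for miR-376a-3p (0.520), miR-127-3p (0.302), miR-134-5p (0.356), miR-541-5p (0.326) and miR-136-5p (0.220). The rise of the let-7 tailed share (9.59 points) was 13.2 against TuD-miR-122, 7.93 with 1 mismatch, 9.06 without inserts read once, 8.17 without resuming tails, 6.93 with tails of at most 2 nt and 5.68 with only A tails. The rise of the trimmed share (11.6 points) was 11.2, 9.59, 11.1 and 10.1 in the first 4 of these settings and 6.42 with a limit of 20 nt. Of 103 named miRNAs, 3 lay on the other side of 1 with a mismatch allowed, 26 against TuD-miR-122 and 31 scaled to all reads. The settings on resuming tails and on left-out lists were chosen after seeing the data. The cause of these shifts was not tested. In TuD-let-7 the shallower depth limits miRNAs under 6.14 RPM.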
